A study of Mus musculus with 8 samples.

Results

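The 31 genes described here carry out or control the uptake and oxidation of fatty acids, the main fuel of the adult heart muscle. They were chosen by gene symbol as members of the pathway, with earlier results of these data known, and all 31 were found among the 32285 genes of the files. They were followed through 4 spatial transcriptome (ST) sections and 4 single-cell RNA libraries of hearts from male wild-type C57BL/6J mice, 8 weeks old at surgery. The groups were sham surgery and transverse aortic constriction (TAC), a narrowing of the aorta that loads the left ventricle, with hearts taken 2 weeks (TAC-2w), 4 weeks (TAC-4w) and 6 weeks (TAC-6w) after TAC. The time at which the sham heart was taken is not given in the sources used here. Each group had 1 section and 1 library, so no difference below has a replicate check and no test between groups was possible. All intervals are 95% intervals that cover counting error only.

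Long-chain fatty acids reach the heart in lipoproteins, from which lipoprotein lipase releases them at the capillary wall, and they enter through carriers such as CD36. Inside the cardiomyocyte they are bound by FABP3, activated to acyl-CoA, passed into the mitochondria as carnitine esters and shortened in the steps of beta-oxidation, whose electrons go to the respiratory chain. The nuclear receptor PPARα, with its coactivator PGC-1α, drives many of these genes. Pathological hypertrophy of the heart is generally described with a lower share of fatty acids and a higher share of glucose in its fuel, and it is this programme that the comparisons with sham bear on.

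Many of the members are known targets of PPARα. For this reason the promoters given for them by RefSeq (GRCm38.p6, 250 bases before to 50 bases after a start site) were searched on both strands. The motifs were the half-site AGGTCA and half-sites in direct repeat 1 base apart. TCAAGGTCA, which itself contains the half-site but is not that direct repeat, was searched as well. Of the 31 members, 26 had at least 1 promoter in the table. The half-site was found in 7 of these 26 genes and in 24.1% of the 29 member promoters, against 16.3% of all 32851 promoters. Neither longer motif was present in a member promoter, and among all promoters they were found in 0.0396% and 0.423%. The windows of Cd36 and Acacb are shown because these were the members with the lowest median ratio to sham over the 3 TAC sections among those holding a half-site (0.906 and 0.909), and that of Ucp3, chosen after its values were seen, because its median ratio was 1.84 and it holds 2 half-sites. Capitals mark the half-site in either orientation.
Cd36 (chr5:17835847-17836146, minus strand): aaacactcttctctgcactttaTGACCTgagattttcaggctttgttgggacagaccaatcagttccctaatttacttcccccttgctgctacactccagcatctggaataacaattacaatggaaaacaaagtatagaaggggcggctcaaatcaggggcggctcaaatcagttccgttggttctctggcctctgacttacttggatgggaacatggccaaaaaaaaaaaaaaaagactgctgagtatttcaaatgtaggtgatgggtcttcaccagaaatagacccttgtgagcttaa
Acacb (chr5:114165268-114165567, plus strand): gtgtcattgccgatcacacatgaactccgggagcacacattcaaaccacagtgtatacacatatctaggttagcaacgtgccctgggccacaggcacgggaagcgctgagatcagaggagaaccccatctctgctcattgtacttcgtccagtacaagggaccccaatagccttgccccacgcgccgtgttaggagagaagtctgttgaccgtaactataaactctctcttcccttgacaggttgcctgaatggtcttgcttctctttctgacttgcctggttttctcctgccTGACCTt
Ucp3 (chr7:100472741-100473040, plus strand): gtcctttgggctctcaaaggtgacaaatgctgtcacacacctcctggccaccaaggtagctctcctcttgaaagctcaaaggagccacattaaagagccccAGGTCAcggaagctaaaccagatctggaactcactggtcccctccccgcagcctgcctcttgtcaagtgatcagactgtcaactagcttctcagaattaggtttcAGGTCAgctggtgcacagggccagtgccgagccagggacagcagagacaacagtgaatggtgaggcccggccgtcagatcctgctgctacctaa
The Cd36 half-site began at base 23 of its window, the Acacb half-site at base 294, after the start site, and the Ucp3 half-sites at bases 102 and 207. A match of these letters is a description and not a binding site.

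The sections held 1228 to 2193 spots over tissue and 25996378 to 48754396 UMIs (unique molecules counted). Transcripts of the mitochondrial genome made up 51.5% of the UMIs in sham and 42.2 to 44.2% in the TAC sections, so levels are given as UMIs per 1000000 UMIs of all other genes (CPM). By the labels, sham and TAC-2w shared a batch among the sections, TAC-4w and TAC-6w each had a batch of their own, and for these 2 stages the batch and the group cannot be told apart. In whole sections, fewer cells of a type and less RNA per cell cannot be told apart either. The median ratio of 12 cardiomyocyte structural genes to sham was 0.895 at 2 weeks, 0.813 at 4 weeks and 0.878 at 6 weeks, that of 6 endothelial markers was 0.656, 0.719 and 1.24, and that of 5 load-responsive cardiomyocyte genes was 0.549, 9.82 and 4.52. None of the 6 skeletal muscle or 6 white adipocyte markers reached 200 UMIs over the 4 sections, and the atrial gene Myl7 had at most 2.76 CPM. Of 4 brown adipocyte markers only Cidea did, at 35.2, 44.8, 93.6 and 48.2 CPM. Haemoglobin and erythroid genes, from blood, had median ratios of 1.12, 0.305 and 0.615. The part of these shifts in the members' values was not tested.

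At TAC-2w and TAC-4w most members stood above their sham level, and at TAC-6w most stood below it. The median ratio to sham over the 31 members was 1.11 at 2 weeks, 1.22 at 4 weeks and 0.879 at 6 weeks, where the median over the 11375 genes with at least 200 UMIs was 0.88, 0.966 and 1.07. All 31 members passed that filter. Above sham were 24 members at 2 weeks, 25 at 4 weeks and 5 at 6 weeks. The 3 ratios share the same sham section. By level, 21 members were highest in the TAC-4w section and 23 were lowest in the TAC-6w section, and the TAC-4w level exceeded the TAC-6w level for 29 members.

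Most members were within 1.5-fold of sham at each stage. The share of members higher by that much was above the share of all genes at TAC-2w and TAC-4w and near it at TAC-6w. Lower by at least 1.5-fold were 0 members at 2 weeks, 0 at 4 weeks and 1 at 6 weeks (Slc27a1), beside 10.9%, 7.13% and 2.21% of all genes tested. Higher by at least 1.5-fold were 2 members at 2 weeks (Pdk4 and Ucp3), 7 at 4 weeks (Fabp3, Slc27a1, Cpt1a, Eci2, Etfdh, Pdk4 and Ucp3) and 2 at 6 weeks (Pdk4 and Ucp3), beside 1.31%, 6.55% and 6.83% of all genes. In spots of 20000 to 30000 UMIs, which narrows the difference in depth between sections, all 31 members stayed on the same side of sham at each stage. The medians there were 1.09, 1.19 and 0.866, the counts lower by 1.5-fold were 0, 0 and 1, and the counts higher were 2, 7 and 2, beside 13.9%, 9.64% and 3.61% of all genes lower and 2.01%, 7.86% and 8.54% higher. Eci2 was not among the 7 at TAC-4w there and Ppara (1.54) was. The Ppara ratio rested on 36 UMIs against 25 in sham, and its interval held 1 (0.901 to 2.68). At TAC-6w Cpt1a (1.67) took the place of Ucp3 (1.49). In the spots with the fewest UMIs (500 to 10000) the TAC-2w median was 0.954, with 14 members above sham and 17 below.

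**Figure D1:**
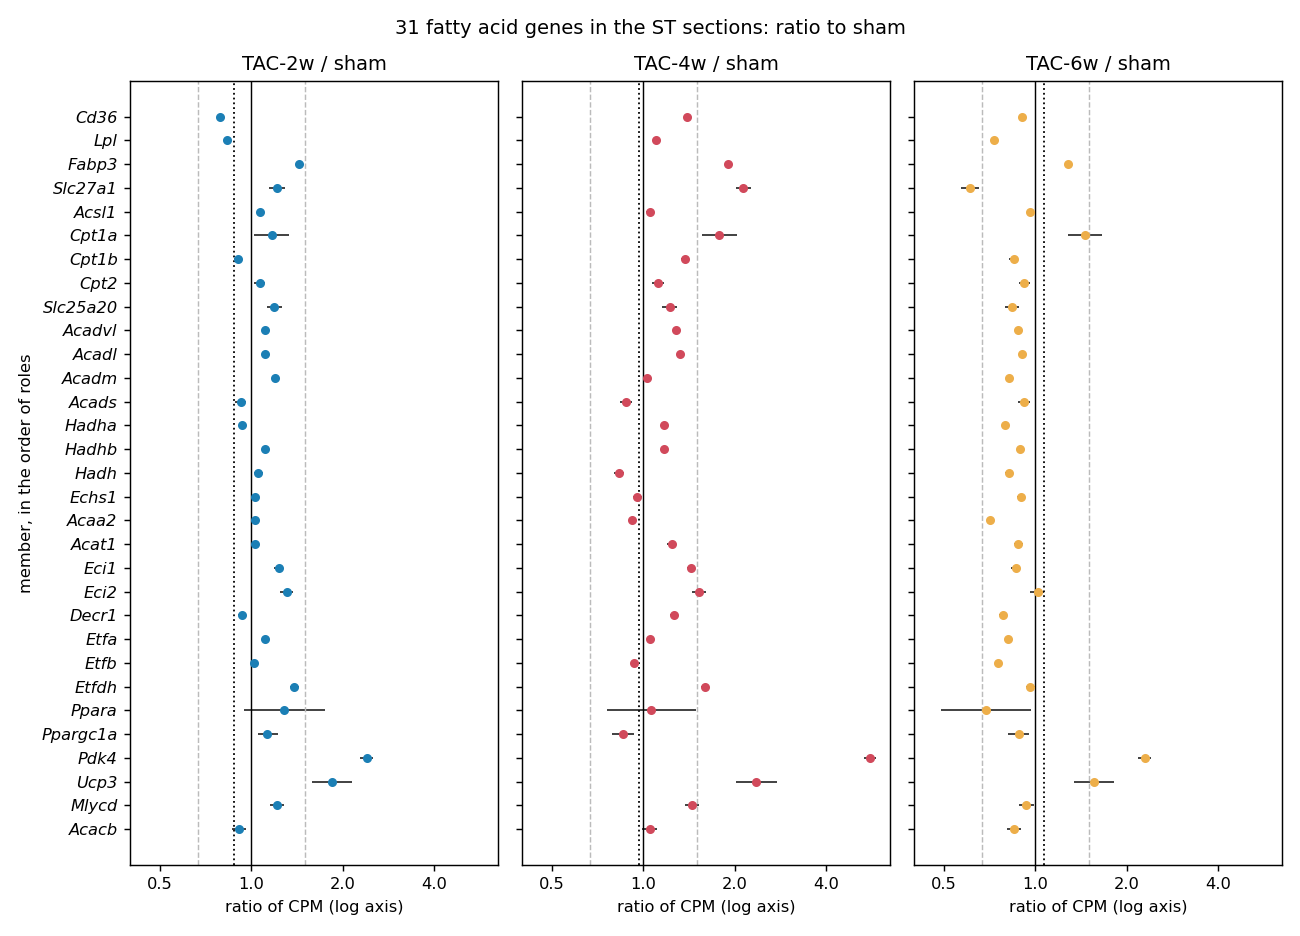
Ratio of the CPM in each TAC section to that in sham for the 31 members, ordered by role, on a log axis, with exact 95% counting intervals as bars. The solid line is 1, the dotted line the median of all genes tested and the dashed lines 1.5-fold in either direction. Most points lie to the right of the dotted line at TAC-2w and TAC-4w and to the left of it at TAC-6w, and Pdk4 lies farthest to the right at every stage.

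The 5 genes of uptake and activation were divided at 2 weeks, with 3 above sham and 2 below, were all above sham at 4 weeks, and had 1 above and 4 below at 6 weeks. Cd36, the fatty acid carrier of endothelial cells and cardiomyocytes, was at 1793 CPM in sham, 1419 at 2 weeks, 2489 at 4 weeks and 1625 at 6 weeks. It was lower than sham at 2 weeks (ratio 0.791, interval 0.779 to 0.805), higher at 4 weeks (1.39, 1.37 to 1.41) and slightly lower at 6 weeks (0.906, 0.892 to 0.921). Lpl, lipoprotein lipase, was at 6562 CPM in sham, 5467 at 2 weeks, 7241 at 4 weeks and 4814 at 6 weeks. Lpl, like Cd36, was below sham at 2 weeks and above it at 4 weeks, and at 6 weeks its ratio was 0.734 (0.727 to 0.74), with 4.05% of all genes lower. Fabp3, the fatty acid binding protein of heart muscle, had 6361, 9104, 12102 and 8113 CPM in sham and at 2, 4 and 6 weeks. It was above sham at every stage, by 1.43, 1.9 and 1.28 fold, and was the only gene of this group that was. Slc27a1, the transporter FATP1, was at 114, 138, 244 and 69.9 CPM in the same order. It held both the highest ratio of the group (2.13 at TAC-4w, 2.01 to 2.26) and the lowest of all members (0.611 at TAC-6w, 0.571 to 0.655). Acsl1, the main acyl-CoA synthetase of the heart, varied little, with 841, 902, 879.6 and 811 CPM.

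In the carnitine shuttle, the 2 isoforms of the outer enzyme lay on opposite sides of sham at TAC-6w. Cpt1a, the isoform of liver and fetal heart, was at 24.5 CPM in sham, 28.6 at 2 weeks, 43.7 at 4 weeks and 35.7 at 6 weeks, and stayed 1.46-fold above sham at TAC-6w (1.28 to 1.66). Cpt1b, the isoform of adult muscle, was at 513, 465, 701 and 434 CPM and was below sham at TAC-6w (0.848, 0.822 to 0.874). The intervals of these 2 ratios do not overlap. In the single-cell libraries Cpt1a was lower in cardiomyocyte-like cells (a mean of 11 CPM, on 5, 4, 2 and 0 UMIs) than in fibroblast-like (47 CPM), macrophage-like (47.6 CPM) and endothelial cell-like cells (43.9 CPM), and the part of these cells in its section level was not tested. Cpt2, which forms acyl-CoA again on the inner membrane, was at 267, 285, 299 and 246 CPM. Slc25a20, the carrier of acylcarnitine across that membrane, was at 156, 185, 189.7 and 131 CPM. Both were above sham at TAC-2w and TAC-4w and below it at TAC-6w.

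The 4 acyl-CoA dehydrogenases open the oxidation spiral and differ by chain length. Acadvl, for very long chains, was at 935, 1041, 1199.5 and 819 CPM in sham and at 2, 4 and 6 weeks. Acadl, for long chains, was at 993, 1098, 1312 and 899.6 CPM. Acadm, for medium chains, was at 1082, 1297, 1113 and 884 CPM, so that its highest level was at TAC-2w. Acads, for short chains, was below sham in all TAC sections, with 257, 237, 226 and 236 CPM. At TAC-4w the ratios were therefore 1.28 and 1.32 for the enzymes of longer chains, 1.03 for Acadm and 0.879 for Acads. At TAC-6w the 4 lay between 0.817 and 0.917.

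The 6 genes of the later steps of the spiral lay between 0.933 and 1.11 at 2 weeks, had 0.832 to 1.24 at 4 weeks (3 above and 3 below) and were all below sham at 6 weeks (0.71 to 0.899). Hadha and Hadhb encode the subunits of the trifunctional protein, which serves long chains. Hadha was at 1312, 1224, 1539 and 1038 CPM in sham and at 2, 4 and 6 weeks, and Hadhb at 2024, 2254, 2365 and 1804 CPM. Both were above sham at TAC-4w, each by 1.17 fold. Hadh, Echs1 and Acaa2 were below sham at that stage. Hadh, the short-chain hydroxyacyl-CoA dehydrogenase, was at 463, 487, 385 and 379 CPM, with a ratio of 0.832 at TAC-4w (0.803 to 0.861). Echs1, the short-chain hydratase, was at 454, 465, 433 and 408 CPM. Acaa2, a thiolase, was at 1429.5, 1473, 1315 and 1015 CPM, and its ratio at TAC-6w (0.71, 0.697 to 0.723) was the lowest of the oxidation enzymes. Acat1, the thiolase that also serves ketone bodies and isoleucine, was at 475, 489, 589 and 418 CPM, above sham by 1.24 fold at TAC-4w.

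The auxiliary enzymes, which prepare unsaturated chains, had a median ratio of 1.43 at TAC-4w, against 1.06 for the later steps of the spiral. Eci1, an enoyl-CoA isomerase, was at 416, 512, 596 and 358 CPM in sham and at 2, 4 and 6 weeks. Eci2, its relative in mitochondria and peroxisomes, was at 158, 207, 242 and 161 CPM, with a ratio of 1.53 at TAC-4w (1.45 to 1.61), which was 1.46 in spots of 20000 to 30000 UMIs. Decr1, the dienoyl-CoA reductase, was at 511, 477, 645 and 399 CPM. Electrons from the dehydrogenases pass through the flavoprotein ETF to its oxidoreductase. The ETF subunits were near sham at TAC-4w, with Etfa at 888, 989, 935 and 719.9 CPM and Etfb at 1573, 1609, 1471 and 1187 CPM. Etfdh, the oxidoreductase, was at 386, 533, 618 and 372 CPM, above sham by 1.38 fold at TAC-2w and 1.6 fold at TAC-4w. At TAC-6w the ratios were 0.811 for Etfa, 0.754 for Etfb and 0.961 for Etfdh.

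Among the regulators and the fuel switch, Pdk4 and Ucp3 had the highest ratios to sham at every stage. Pdk4, the kinase that turns off pyruvate dehydrogenase and so spares glucose, was at 160.3 CPM in sham, 384 at 2 weeks, 891 at 4 weeks and 367 at 6 weeks. Its ratios were 2.4 (2.28 to 2.51), 5.56 (5.3 to 5.82) and 2.29 (2.18 to 2.41), and it ranked 12, 27 and 116 from the highest of 11375 genes. Ucp3, a mitochondrial carrier that goes with fatty acid use in muscle, was at 17.1, 31.5, 40.4 and 26.7 CPM, also highest at TAC-4w (2.35, 2.02 to 2.75). Both were above sham at every stage, TAC-6w included, as were Fabp3 and Cpt1a. Eci2 was also above sham throughout, but its interval at TAC-6w held 1 (1.02, 0.964 to 1.07). Mlycd, which removes the inhibitor malonyl-CoA, was at 135, 164, 195 and 126 CPM. Acacb, which makes malonyl-CoA at the mitochondrion, was at 155, 141, 162 and 132 CPM. Mlycd was thus 1.45-fold above sham at TAC-4w and Acacb 1.05-fold, with intervals of 1.37 to 1.53 and 0.988 to 1.11. Transcripts of the regulators themselves did not show the pattern of Pdk4. Ppargc1a (PGC-1α) was at 76.9, 86.7, 65.8 and 67.8 CPM, below sham at TAC-4w and TAC-6w. In spots of 20000 to 30000 UMIs its ratios there were 0.995 (0.863 to 1.15) and 0.954 (0.826 to 1.1), with intervals that held 1. Ppara had 409 UMIs in all 4 sections together and 4.76, 6.09, 5.04 and 3.26 CPM, and its intervals held 1 at TAC-2w and TAC-4w.

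**Figure D2:**
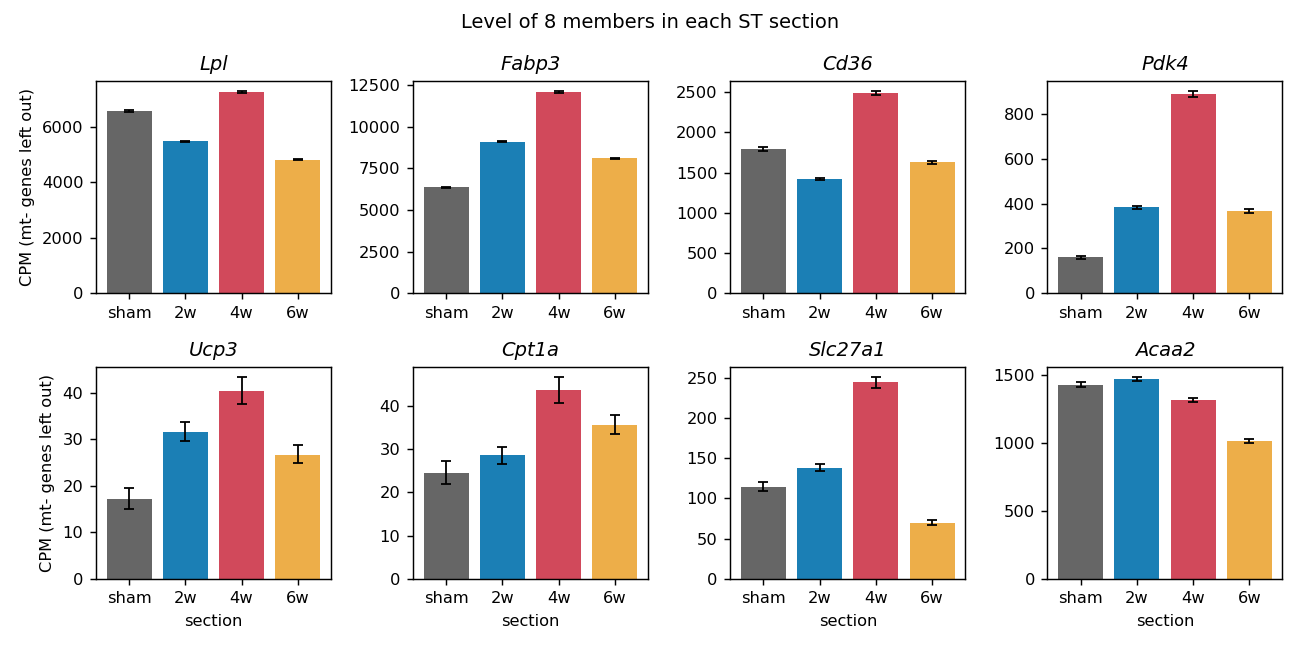
CPM of 8 members in each section as bars from 0, with exact Poisson 95% intervals. Pdk4, Fabp3, Ucp3 and Cpt1a are above the sham bar in all 3 TAC sections, while Lpl, Slc27a1 and Acaa2 have their lowest bar at TAC-6w and Cd36 has its lowest bar at TAC-2w.

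Of 93 further genes of lipid metabolism, 88 had at least 200 UMIs. Higher by 1.5-fold were 3 at 2 weeks, 15 at 4 weeks and 8 at 6 weeks, and lower were 2, 5 and 0, beside 1.31%, 6.55% and 6.83% of all genes higher and 10.9%, 7.13% and 2.21% lower. Their median ratios were 0.941, 1.01 and 0.995, nearer to all genes than those of the members were at every stage. Acot1, a cytosolic acyl-CoA thioesterase, was at 22.8, 59.3, 151 and 20.9 CPM in sham and at 2, 4 and 6 weeks. Angptl4, a secreted inhibitor of lipoprotein lipase, was at 10.7, 31.4, 68.6 and 32.3 CPM. Acot1 was 6.65-fold and Angptl4 6.41-fold above sham at TAC-4w. At TAC-6w Angptl4 was at 3.02 fold and Acot1 at 0.917. Acot2, the mitochondrial thioesterase, was 2.65-fold and the carrier gene Ucp2 2.21-fold above sham at TAC-4w. Nr4a1, an immediate early nuclear receptor, was at 10.5, 13.2, 63.6 and 37.8 CPM. In the lipid droplet list of 14 measured genes, 5 were higher by 1.5-fold at TAC-4w, named here after their values were seen: Plin2 (1.85), Plin5 (1.74), Lipe (1.73), Pnpla2 (1.7) and Gpam (1.52), where 6.55% of all genes were as high. In the same list 1 gene was lower by 1.5-fold (Lpin1, 0.634), and 10 were above and 4 below sham. Bdh1, the first enzyme of ketone body use, was at 162, 69.6, 113 and 222 CPM, lowest at TAC-2w (0.429, 0.403 to 0.457). Fabp5, a binding protein of endothelial and immune cells, reached 249 CPM at TAC-6w from 104 in sham (2.39-fold), and Meox2, an endothelial regulator of fatty acid transport, 7.69 CPM at TAC-4w from 16 in sham (0.48).

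The respiratory chain was on the same side of sham as the members at TAC-2w and TAC-6w and on the other side at TAC-4w. The 56 nuclear subunits of the respiratory chain had median ratios of 1.16 at 2 weeks, 0.91 at 4 weeks and 0.91 at 6 weeks, and 0 of them was higher by 1.5-fold at TAC-4w, beside 6.55% of all genes. The 24 measured genes of glycolysis and pyruvate entry had 0.932, 0.808 and 0.971. Beside the members' medians of 1.11, 1.22 and 0.879, the respiratory subunits were thus close to the fatty acid genes at TAC-2w and TAC-6w, and both lists were below them at TAC-4w. Of the 14 measured clock genes, a list added after the data were seen, 13 were below sham at 2 weeks, 12 at 4 weeks and 11 at 6 weeks (medians 0.739, 0.723 and 0.889). Dbp, an output gene of the clock, was at 132, 81.3, 64 and 127 CPM in sham and at 2, 4 and 6 weeks. The part of the time of day in the member levels was not tested.

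The direction at TAC-6w depended on what the UMIs were set against. With the mitochondrial transcripts kept in the total, 17 members were above sham and 14 below at TAC-6w, with a median of 1.01, while at TAC-2w and TAC-4w 29 and 30 were above (1.3 and 1.45). That total also moved the median of all genes to 1.03, 1.15 and 1.23, and relative to the median of all genes the members stood at 1.26, 1.26 and 0.831. Per UMI of the 12 cardiomyocyte structural genes, 31 of 31 members were above sham at TAC-4w (median 1.6), and at TAC-6w 14 were above and 17 below (0.996). Members at TAC-6w were therefore below the other genes of the section but level with the muscle's structural genes.

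Within sections, the members were lower where Nppa was higher. Nppa encodes the natriuretic peptide ANP, a marker of loaded cardiomyocytes. When the spots of a section were put into 3 classes of equal size by their Nppa level, Nppa was at 375 CPM in the lowest class and 8669 CPM in the highest class of TAC-4w, and 30 of 31 members were lower in the highest class (median ratio 0.893), beside 41.2% of all genes tested (median 1.03). The summed members went from 42139 to 37563 CPM (0.891, 0.886 to 0.896), while the cardiomyocyte structural genes stood at 0.969. Pdk4 differed more than the sum, with 1002 CPM in the lowest and 725 in the highest class (0.723, 0.696 to 0.752), and so did Acaa2 (0.803, 0.778 to 0.828). Cd36 (0.935) and Fabp3 (0.931) differed less. Even the highest class of TAC-4w, at 37563 CPM, was above every class of sham, which lay between 29251 and 31264 CPM.

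The same order was present in the other sections, where Nppa was lower. The medians were 0.93 in sham, 0.923 at TAC-2w and 0.889 at TAC-6w, with 26, 28 and 29 members lower in the highest class, beside 42.3%, 44.2% and 44.8% of all genes. In sham and TAC-2w every spot of the lowest class had no Nppa UMI. At TAC-6w the highest class had a median of 8730.5 UMIs per spot and the lowest 29697, so depth moved with Nppa there. Among spots of 20000 to 30000 UMIs only, the medians were 0.923, 0.952, 0.885 and 0.947 in sham and at 2, 4 and 6 weeks, with 27, 26, 27 and 23 members lower, beside 43.3%, 42.3%, 43.7% and 46.3% of all genes. The interval lay below 1 for 15, 15, 18 and 7 members and above 1 for 1, 0, 1 and 1. These counts also depend on the spots used, which were 488, 1309, 371 and 383, and do not rank the sections. The fewest members were lower at TAC-6w, while the median was nearest to 1 at TAC-2w. Spots of 1 section are not replicates, and these values describe 4 sections. The outer rim of the tissue differed little from its interior, with median ratios between 0.979 and 1.04.

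**Figure D3:**
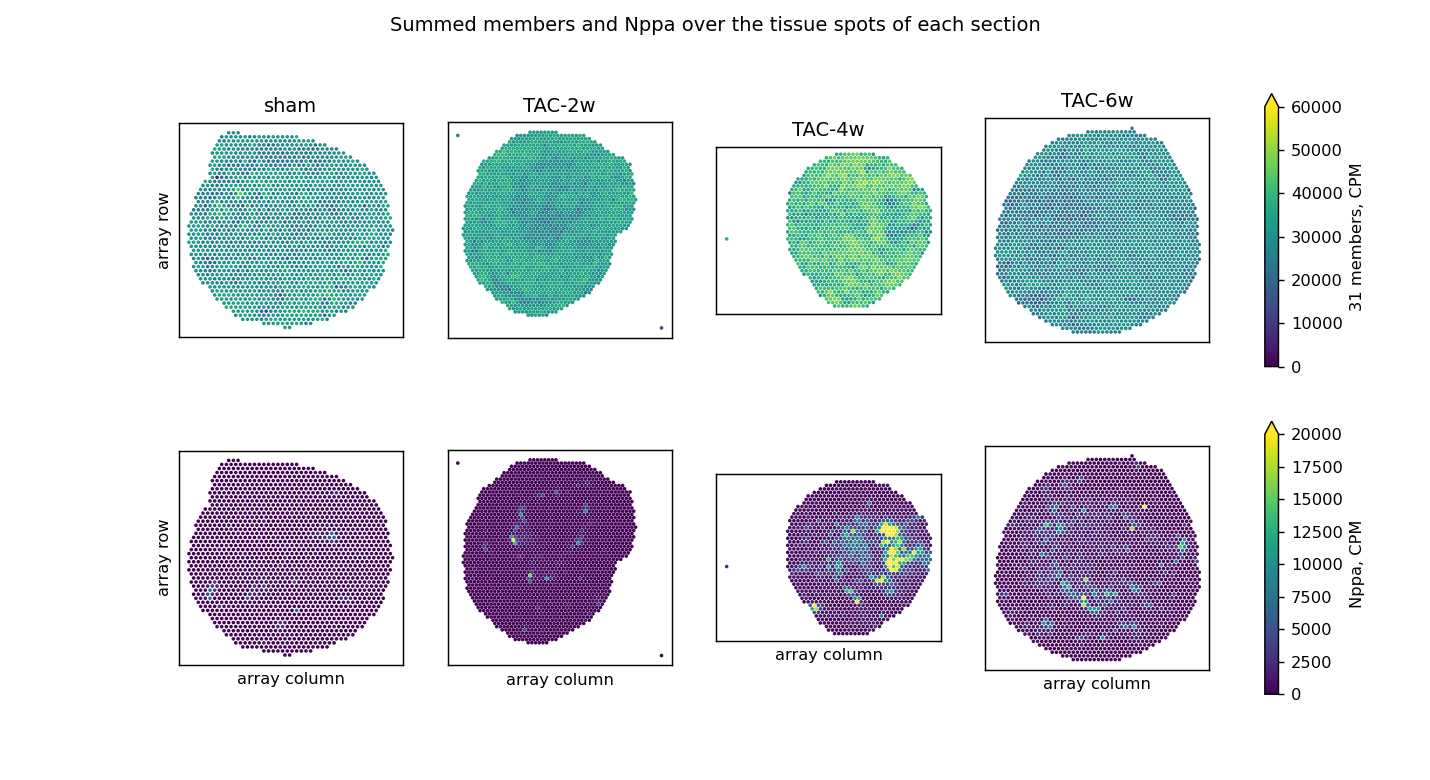
Summed CPM of the 31 members (upper row) and CPM of Nppa (lower row) in each spot, drawn at its array row and column, with 1 colour scale per row. The TAC-4w section is the brightest in the upper row (37563 to 42139 CPM in its Nppa classes, against 29251 to 31264 in those of sham), members are present throughout every section, and Nppa is concentrated in part of the TAC-4w section.

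**Figure D4:**
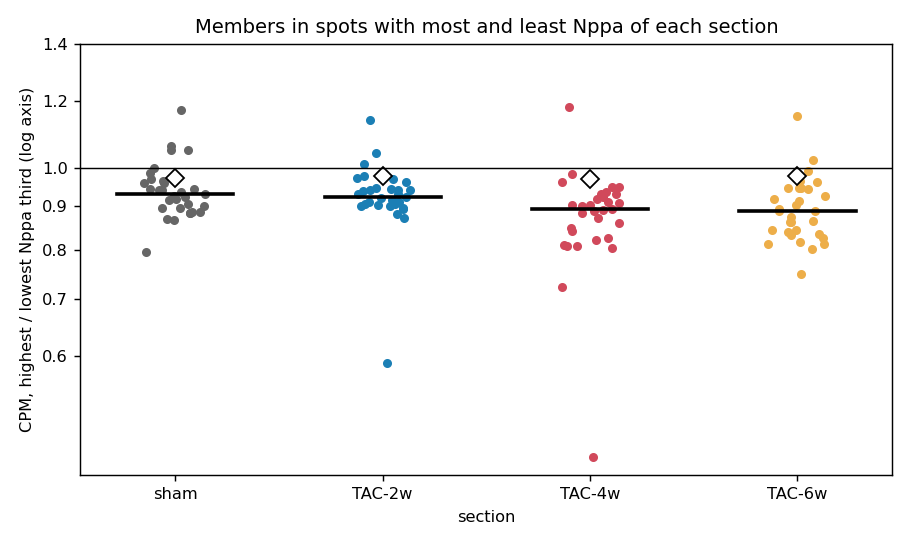
Ratio of the CPM in the class of spots with the most Nppa to that in the class with the least, on a log axis, for each of the 31 members (points) in each section, with the member median (bar) and the 12 cardiomyocyte structural genes summed (diamond). The medians of 0.93, 0.923, 0.893 and 0.889 lie below 1, and the diamonds lie nearer to 1 than the medians do.

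The libraries served to place the members in cell types, and above all Cd36 and Lpl, which capillaries and other cells also use. After filtering they held 5399 to 7965 cells with median depths of 4449 to 10717 UMIs. Among the libraries, sham and TAC-6w shared a batch by the labels, and TAC-2w and TAC-4w each had their own, which cannot be told apart from the stage. The TAC-4w library stood apart in its cells, with 6% fibroblast-like and 37.1% B cell-like cells, where the other libraries had 48.9 to 54.3% and 2.48 to 16.9%. Pairs of libraries shared 9 to 30 barcodes, at most 0.359% of the smaller library. Cardiomyocyte-like cells were few, at 107, 74, 23 and 10 cells in sham and at 2, 4 and 6 weeks, were shallow (1452 to 2513 UMIs at the median), and were led by Sln and Myl7, of which Myl7 was near 0 in the sections.

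Averaged over the libraries, 24 of the 31 members had their highest level in the cardiomyocyte-like cells. Fabp3 was at 7114, 6326, 9572 and 10196 CPM there and at 21.8, 9.27, 2.5 and 2.4 CPM in B cell-like cells, which should lack it and are taken as background. Pdk4 had 65, 72, 11 and 2 UMIs in the cardiomyocyte-like cells, where its level lay between 101 and 226 CPM over the libraries. A rise of the size seen in the TAC-4w section (5.56-fold) was not present there, on few UMIs at 4 and 6 weeks. Because these cells were led by Sln and the atrial gene Myl7, they may differ from the cardiomyocytes of the sections. Whether the 2 are comparable was not tested. Pdk4 was also present in fibroblast-like cells, at 29.8, 38.9, 76.1 and 22.5 CPM. Acsl1 was highest in neutrophil-like cells (a mean of 180.4 CPM over the libraries), and Acacb in endothelial cell-like cells (18.3 CPM).

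Cd36 was highest in endothelial cell-like cells in these libraries, with lower levels in smooth muscle and myeloid cells. In endothelial cell-like cells it was at 1305 CPM in sham, 2329 at 2 weeks, 3129 at 4 weeks and 1902 at 6 weeks. These cells supplied 55.2, 63.6, 95.3 and 76.1% of all Cd36 UMIs of the libraries while making up 6.2, 9.04, 7.3 and 3.7% of the cells. All cells of the sham library together had 108 CPM of Cd36, against 1793 CPM in the sham section. These shares therefore describe the libraries and not the heart tissue. Monocyte-like cells, 34 to 218 per library, had 241, 339.6, 50.3 and 121 CPM, and macrophage-like cells 189.8, 211, 75.3 and 105 CPM. Smooth muscle cell-like cells had 139.8 CPM in sham, 147 at 2 weeks and 219.7 at 6 weeks, with too few cells for a level at 4 weeks. The interval of their TAC-6w ratio held 1 (0.994 to 2.4), and 17.6, 26.1 and 15.8% of these cells had a Cd36 UMI. They also held the endothelial transcripts Fabp4 (a mean of 1072 CPM) and Cdh5 (42.3 CPM). The part of endothelial RNA in their Cd36 was not tested. Cardiomyocyte-like cells had 52.9, 66, 73.4 and 56.6 CPM, on 20, 21, 8 and 1 UMIs. B cell-like cells, taken as background, had 13.1, 27.8, 14.3 and 7.79 CPM, and fibroblast-like cells 7.75, 8.44, 8.64 and 1.28 CPM. The intervals of cardiomyocyte-like and B cell-like cells did not overlap in sham (32.3 to 81.6 against 5.97 to 24.8) and at TAC-4w (31.7 to 145 against 12.1 to 16.8) and overlapped at TAC-2w and TAC-6w. Other blood cells differed from B cell-like cells. In sham the interval of NK cell-like cells (7.97 to 28.6) also lay below that of cardiomyocyte-like cells. Those of T cell-like (28.5 to 61), neutrophil-like (6.89 to 35.3) and platelet-like cells (10.3 to 146) overlapped it. Cd36 in cardiomyocyte-like cells was thus not set apart from all blood cells. Cells with at least 1 Cd36 UMI made up 63.8, 78.4, 92.9 and 81% of endothelial cell-like cells and 3.48, 7.05, 5.03 and 1.2% of B cell-like cells. Median depths were 5113, 2989, 7043 and 3652.5 UMIs in the former and 3075, 3632.5, 4348.5 and 1901 UMIs in the latter. With every cell thinned to 2000 UMIs, the endothelial shares were 49.5, 72, 91.7 and 77.6%, for which 161, 212, 42 and 30 shallower cells were left out.

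The endothelial cell-like cells formed 2 clusters, and Cd36 was high in one of them. The cluster led by Stmn2, Cldn5 and Gpihbp1 (Gpihbp1 holds lipoprotein lipase to the capillary wall) had 3029 CPM of Cd36 in sham, and the cluster led by H19, Npr3 and Gpm6a had 144 CPM. The former made up 64% of the endothelial cell-like cells in sham, 80% at 2 weeks, 99.6% at 4 weeks and 91.5% at 6 weeks. The direction between the libraries that shared a batch differed between the pooled cells and this cluster. Over all endothelial cell-like cells Cd36 was higher at TAC-6w than in sham, with a ratio of 1.46 (1.37 to 1.54). Within the Stmn2 cluster it was lower, at 2125 CPM against 3029 (0.702, 0.661 to 0.744), and within the H19 cluster it was not distinguishable at 17 cells (1.11, 0.614 to 1.87). In the Stmn2 cluster Cd36 was at 4070.5 CPM at TAC-2w (1.34, 1.29 to 1.4) and 3142 CPM at TAC-4w (1.04, 1 to 1.08).

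Lpl followed the same division. In the Stmn2 cluster it was at 1154 CPM in sham, 1658 at 2 weeks, 969 at 4 weeks and 611 at 6 weeks, so that TAC-2w was the highest and TAC-6w the lowest. The ratio of TAC-6w to sham was 0.53 (0.476 to 0.589) there, 0.266 (0.0545 to 0.788, on 3 UMIs at TAC-6w) in the H19 cluster and 1.02 (0.915 to 1.13) over both clusters. Only 4 members had 200 UMIs in the Stmn2 cluster over sham and TAC-6w, of which 3 were below sham and Lpl alone was lower by 1.5-fold. Of all genes tested in that cluster, 12.6% were as low and 11.4% as high. The endothelial markers and transport genes named here for TAC-6w were near or above sham in the cluster. They are only part of their lists and do not describe them. The other genes, Meox2 included, are not given for TAC-6w. Pecam1 (0.944) and Cdh5 (1.07), which define endothelium, had intervals that held 1 at TAC-6w. Gpihbp1 stood at 1.23 (1.14 to 1.33), Fabp4, the binding protein of capillary endothelium, at 1.06 (1.03 to 1.08), Fabp5 at 1.2 (1.1 to 1.31) and Tcf15, a regulator of endothelial fatty acid transport, at 2.29 (1.97 to 2.67). At TAC-2w, Cd36, Lpl (1.44), Gpihbp1 (1.61), Fabp4 (1.41), Fabp5 (1.61), Meox2 (1.73) and Tcf15 (1.37) were all above sham in the Stmn2 cluster, while Pecam1 was below (0.793). These genes too are only part of their lists and do not describe them. Of all genes tested in the cluster at TAC-2w, 2.26% were higher by 1.5-fold and 2.71% lower. The median mitochondrial share of these cells was 7.76% in sham and 5.47% at TAC-6w, and with a share under 5% required the ratios at TAC-6w were 0.717 for Cd36 and 0.563 for Lpl.

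**Figure D5:**
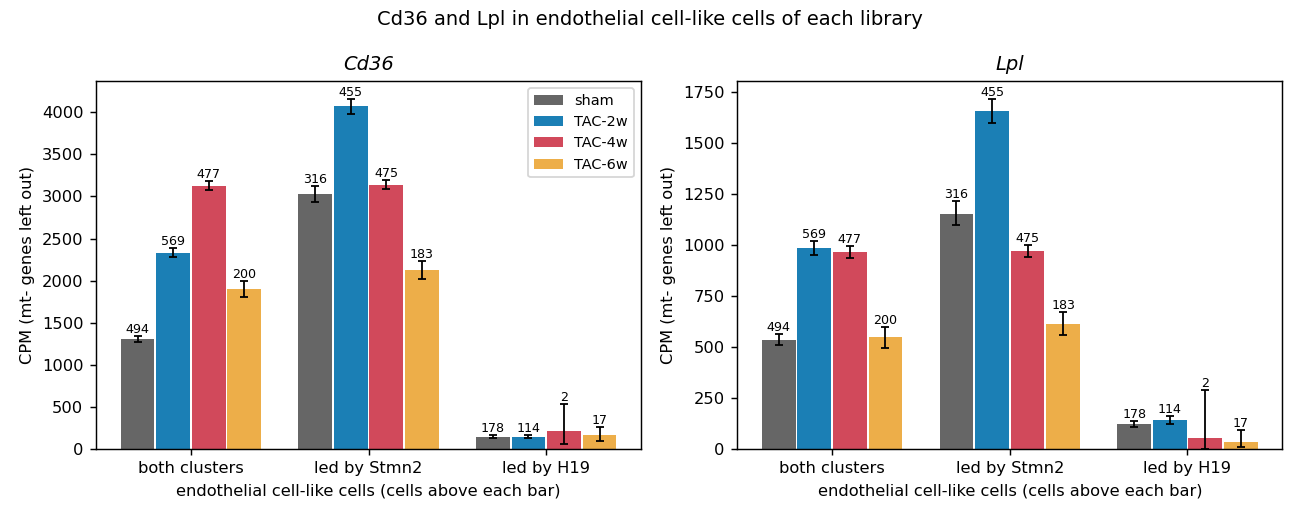
CPM of Cd36 and Lpl in all endothelial cell-like cells and in each of their clusters, by library, as bars from 0 with exact Poisson 95% intervals and the number of cells above. For both clusters together TAC-6w is above sham in Cd36 (1902 against 1305) and level with it in Lpl (546 against 536), and in the cluster led by Stmn2 it is below sham in both genes (2125 against 3029, and 611 against 1154).

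Most Lpl UMIs of the libraries lay in fibroblast-like cells, which supplied 87.8% in sham, 79.4% at 2 weeks, 30% at 4 weeks, where they were few, and 90.9% at 6 weeks. Their Lpl was at 669, 635, 366 and 493 CPM, and the TAC-6w ratio was 0.737 (0.719 to 0.754). Dendritic cell-like cells had 444, 473, 475 and 320.5 CPM and cardiomyocyte-like cells 233, 245, 404 and 397 CPM. B cell-like cells had 34.8, 27.8, 5.29 and 7.19 CPM. Lpl was thus above the B cell-like level in endothelial cell-like, fibroblast-like and cardiomyocyte-like cells, the last on 7 UMIs at TAC-6w. Other blood cells were higher in sham, with 85.7 CPM (59.7 to 119) in neutrophil-like and 99.7 CPM (36.6 to 217) in platelet-like cells. The sham interval of smooth muscle cell-like cells (102 CPM, 83.9 to 124) overlapped both, and that of cardiomyocyte-like cells (187 to 287) overlapped the platelet-like one. No cell type of the libraries passed 986 CPM, and all cells of the sham library together had 489.8 CPM. The sections had 4814 to 7241 CPM of Lpl, so the shares above describe the libraries and not the heart tissue.

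Macrophage-like cells, which take up lipid through CD36 as a scavenger receptor, had lower levels of some members at TAC-4w and of many at TAC-6w. At TAC-4w (186 cells), 7 of 21 members were lower by 1.5-fold and 0 higher, beside 10.1% and 7.48% of all genes. The ratio of Cd36 to sham was 0.397 (0.323 to 0.483) at that stage. Of the 21 members with 200 UMIs over the sham and TAC-6w libraries, 10 were lower by 1.5-fold and 0 higher, beside 16.8% of all genes lower and 3.45% higher, and the median was 0.672 against 0.866 for all genes. They included Cd36 (189.8 to 105 CPM, 0.554, 0.494 to 0.62), Lpl (78.4 to 38.7 CPM, 0.494), Acaa2 (0.512), Hadhb (0.533) and Acadl (0.546). Cardiomyocyte transcripts in the same cells, where they are background, were also lower, with Tnnt2 at 68.4 and 35.8 CPM (0.524), Myh6 at 49.3 and 9.39 CPM (0.19) and Myl2 at 94.8 and 82.8 CPM (0.873). Lpl, most of whose UMIs lay in fibroblast-like cells, was also lower at TAC-6w in B cell-like cells, taken as background (0.207, 0.0941 to 0.429). The same held for neutrophil-like (0.0551, 0.00642 to 0.214) and T cell-like cells (0.155, 0.00373 to 0.967). The part of free RNA of cardiomyocytes or fibroblasts in these values was not tested. Fabp5 was higher in the macrophage-like cells (2.01, 1.76 to 2.29). At TAC-6w the median of members was also below that of all genes in endothelial cell-like (0.76 against 0.971) and fibroblast-like cells (0.843 against 0.943). The same held for proliferating (0.766 against 0.899, 7 members measured) and dendritic cells (0.841 against 0.934, 2 members). It also held for cardiomyocyte-like (0.901 against 1.03, 6 members) and unnamed cells (0.738 against 0.93, 6 members). Smooth muscle cell-like cells, with 1 member measured, stood at 1.02 against 0.967.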

How the data were processed

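Transcripts were measured on 4 ST sections (Visium) and in 4 droplet libraries (10x). The authors deposited raw UMI counts per gene and spot or cell, made with Space Ranger and Cell Ranger on mm10. The file headers give spaceranger 1.2.0 and cellranger 6.0.0, the submitters' processing notes Space Ranger 1.3.1 and Cell Ranger 7.0.0. The labels describe nuclei and the study's methods cells, and which applies was not decided here.

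Section counts were summed over spots and divided by the total without the 13 mt- genes. Ratios have exact conditional binomial intervals, levels exact Poisson and shares Clopper-Pearson intervals (95%). Background genes needed 200 UMIs over the sections. Cells with 200 to 6000 genes, 500 to 30000 UMIs and under 15% mitochondrial UMIs were kept, the top 3.2% by Scrublet score (scanpy 1.11.5) removed, and the rest clustered in Seurat 5.3.0 (R 4.3.3, 3000 variable genes without the pathway genes, 30 components, resolution 0.25, no integration). A cluster was called X-like from at least 3 markers raised 2-fold. It stayed unnamed where its leading genes held more markers of another type or several cartilage matrix genes. Shallow clusters with none of their own markers among the leading genes also stayed unnamed. Cells were thinned to 2000 UMIs for shares. Ratios were computed with scipy 1.17.1 and pandas 2.3.3 under Python 3.11.15, with matrices held in numpy 2.4.6 and plots in matplotlib 3.10.9, and the ratio code was tested on simulated data.

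All 31 members are named. Other pathway genes are named when at least 2-fold from sham, at most 6 per direction and section (1 such gene is not reported here), and promoters by the smallest median ratio. The members and lists were chosen with earlier results of these data known. Alternatives changed the total, spots, averaging, scaling, gene filter, cell filter, doublets, naming and resolution. The separate endothelial clusters, the upward counts, the Nppa classes at matched depth, and the clock and haemoglobin lists were added after the data were seen.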

Additional observations from a re-analysis of the deposited data

How the results depend on the processing

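With mitochondrial transcripts in the total, the members' median ratios were 1.3, 1.45 and 1.01 at TAC-2w, TAC-4w and TAC-6w, with 5 members higher by 1.5-fold at TAC-2w, 14 at TAC-4w and 0 lower at TAC-6w, beside 4.55%, 14% and 1.1% of all genes. Per UMI of the cardiomyocyte structural genes they were 1.21, 1.6 and 0.996, with 4 and 18 higher at TAC-2w and TAC-4w and 0 lower at TAC-6w, beside 2.59%, 22.5% and 1.17% of all genes. With the median ratio of all genes set to 1 they were 1.26, 1.26 and 0.831, with 4 higher at TAC-2w, 1 higher at TAC-6w and 2 lower at TAC-6w, beside 3.47%, 5.22% and 3.14%. Spots of 20000 to 30000 UMIs gave 1.09, 1.19 and 0.866, and a mean over spots 1.1, 1.21 and 0.867. Spots with 6 tissue neighbours gave 1.12 at TAC-2w and 1.23 at TAC-4w, with 2 lower at TAC-6w beside 2.47% of all genes, and members with at least 1000 UMIs gave 1.23 at TAC-4w. In endothelial cell-like cells, the TAC-6w ratio of Cd36 was 2.04 with a mitochondrial share under 5%, 0.702 in the Stmn2 cluster alone, 0.717 there with a share under 5%, and 1.11 in the H19 cluster alone. That of Lpl was 0.53, 0.563 and 0.266 in the last 3 settings. Apart from the clusters' makeup, the cause of these differences was not tested. No replicate could be left out, with 1 section and 1 library per group. No paired analysis was possible because each group had 1 sample per assay and no result comes from a test. Depth limits Ppara, with 409 UMIs over the sections, and the cardiomyocyte-like cells.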
